A study of Mus musculus with 10 samples.

Results

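The 9 genes described here encode parts of the tight junction and the desmosome: Cldn3, Cldn4, Cldn7, Ocln, Tjp1, F11r, Epcam, Dsp and Pkp2. They were taken from a deposited table of gene counts by their NCBI gene identifiers, and each of the 9 has a row among the 18103 genes of the table. In total, 7 of them passed the filter on low counts and were tested. Cldn7 and Ocln did not pass it and are given as raw counts.

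The libraries came from 2 mesenchymal mouse breast cancer cell lines, harvested on day 7, with 2 libraries from independent experiments in each of 5 groups. Py2T-LT cells, a long-term subline of the Py2T line from a mouse mammary tumour driven by the polyoma middle T antigen, were sampled after bone morphogenetic protein 2 (BMP2) with a MEK inhibitor, after the MEK inhibitor without BMP2, and as controls. MTΔECad cells, whose name marks deletion of E-cadherin, were sampled after rosiglitazone, which activates PPARγ, the master regulator of fat cell formation, and as controls. The titles of these MTΔECad controls, unlike those of the other groups, do not name the day. The protocol gives DMSO medium for control cells and states as usual doses 2 µM for rosiglitazone, 200 ng/ml for BMP2 and, for PD98059 (the MEK inhibitor), 40 µM, while the sample labels give no dose. For cancer cells that protocol also adds rosiglitazone with and after BMP2, and the Py2T-LT labels are silent on it, which leaves its presence in those cultures unknown. Each line is a single line, and no group received BMP2 without the MEK inhibitor.

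Tight junctions seal the space between neighbouring epithelial cells. Their strands are built by claudins and occludin, junctional adhesion molecules lie beside the strands, and ZO scaffolds tie them to actin. Desmosomes are the spot welds of epithelia: desmosomal cadherins bind plakophilins and plakoglobin, and desmoplakin links these to keratin filaments. Both structures are typically reduced when mammary epithelial cells pass into a mesenchymal state, and the repressors SNAI1, SNAI2, ZEB1 and ZEB2 of that transition bind E-box letters in DNA.

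The promoters of 4 members are shown because Cldn3 and Cldn4 lie near each other in the genome and had different values in the treated Py2T-LT cells, and because Epcam and Dsp were among the members furthest apart between the lines. Sequences are from RefSeq on GRCm38.p6, the assembly of mm10. Each window runs 5′ to 3′ along the gene's strand, from 250 bases before the annotated start to 30 bases after it, with the E-box letters CAGGTG or CACCTG (1 motif read on both strands) in capitals and all else in lower case. The windows are chr5:134985964-134986243 on the plus strand for Cldn3, chr5:134946905-134947184 on the minus strand for Cldn4, chr17:87635729-87636008 on the plus strand for Epcam and chr13:38151044-38151323 on the plus strand for Dsp.
Cldn3: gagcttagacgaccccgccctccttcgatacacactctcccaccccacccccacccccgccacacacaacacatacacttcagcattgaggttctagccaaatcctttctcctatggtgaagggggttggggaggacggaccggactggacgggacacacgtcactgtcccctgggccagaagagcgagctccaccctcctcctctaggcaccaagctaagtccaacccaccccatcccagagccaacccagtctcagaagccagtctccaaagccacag
Cldn4: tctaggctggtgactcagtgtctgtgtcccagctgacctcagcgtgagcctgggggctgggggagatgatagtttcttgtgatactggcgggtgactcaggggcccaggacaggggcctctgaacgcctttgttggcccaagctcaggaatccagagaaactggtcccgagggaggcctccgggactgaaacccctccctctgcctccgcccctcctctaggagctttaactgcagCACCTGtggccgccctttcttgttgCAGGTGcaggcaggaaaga
Epcam: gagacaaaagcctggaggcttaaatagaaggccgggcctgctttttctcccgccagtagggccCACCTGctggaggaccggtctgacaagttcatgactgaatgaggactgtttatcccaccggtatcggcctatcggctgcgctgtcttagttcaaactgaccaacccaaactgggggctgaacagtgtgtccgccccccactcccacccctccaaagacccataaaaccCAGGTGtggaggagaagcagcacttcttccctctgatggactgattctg
Dsp: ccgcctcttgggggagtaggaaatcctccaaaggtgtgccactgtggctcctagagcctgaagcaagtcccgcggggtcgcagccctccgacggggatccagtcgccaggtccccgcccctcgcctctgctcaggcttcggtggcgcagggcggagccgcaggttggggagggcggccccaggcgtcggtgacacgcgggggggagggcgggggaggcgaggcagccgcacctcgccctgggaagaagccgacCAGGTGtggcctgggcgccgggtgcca
The Cldn4 window holds an E-box at each side of the start, with first bases at -14 and +12. In the Epcam window the first bases lie at -187 and -19, and in the Dsp window the motif begins at +4. No E-box stands in these letters for Cldn3, nor in the window of Tjp1. That Tjp1 window, chr7:65371215-65371494 on the minus strand, is at a start inside the span of the gene. A window was given for 8 of the 9 members, and Pkp2 had none. The motif occurred in the windows of 6 of these 8 genes, or 75%, against 21.3% of all 27025 genes with a window, where a gene counts if any of its windows holds the motif. Among the 6 tested members with a window it was 4, against 19.3% of the 10358 tested genes. With 2 or more E-boxes in 1 window, the share was 4 of 8 members against 2.91% of all genes, and 2 of 6 tested members against 2.42% of tested genes. Extended to 50 bases past the start, 7 of the 8 members held the motif, the added gene being Cldn3 or Tjp1, against 22.6% of all genes. The letters GGGCGG or CCGCCC, read by SP-family factors, stood in all 8 member genes and in 37.3% of all genes. The grainyhead-like letters AACCGGTT stood in none of the 8 and in 0.155% of all genes. These matches describe letters and do not show that a factor binds.

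Depth was even across the libraries, with totals of 14659987 to 17249199 counts, so that 1 count was worth 0.0548 to 0.0696 CPM (counts per 1e6, scaled by TMM). A level of 3 counts in a library, taken as the floor, came to 0.164 to 0.209 CPM. Cdh1, the E-cadherin gene named in the MTΔECad label, had 46 and 67 counts in MTΔECad rosiglitazone libraries and 37 and 36 counts in MTΔECad controls, against 584 and 507 counts in Py2T-LT controls. Which exons were deleted is not given in the sources used here, so the remaining counts check nothing. The 7 luminal markers summed to 211 to 669 CPM in any library, mostly from the keratin genes Krt8 and Krt18, while the luminal keratin gene Krt19 was at 0. The 7 mesenchymal markers summed to 8320 CPM or more in each library, mostly from Vim and Fn1. In the Py2T-LT groups the mesenchymal markers Col1a1 and Col3a1 averaged only 1.43 to 2.28 CPM and 0.484 to 4.07 CPM. Summed haematopoietic markers reached at most 2.65 CPM and endothelial markers at most 1.62 CPM in any library. In these bulk libraries, fewer cells with a transcript and less of it per cell cannot be told apart.

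**Figure D1:**
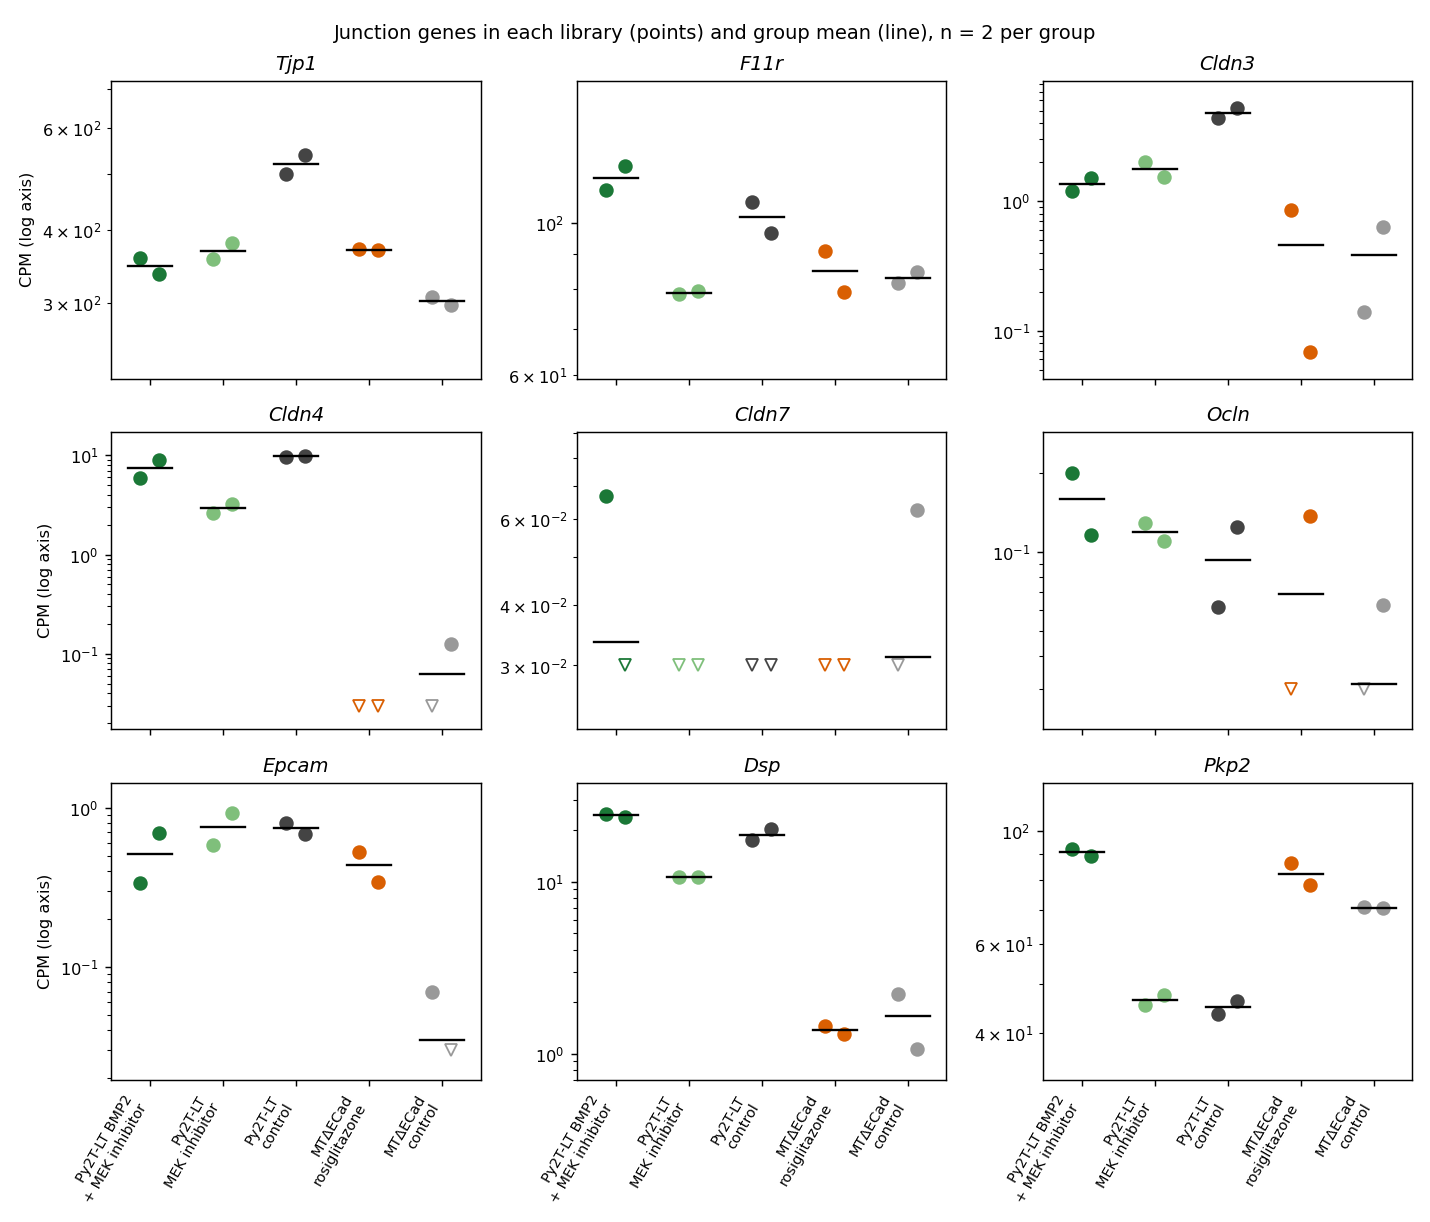
CPM of each of the 9 genes (log axes, a different range in each panel) in the 2 libraries of every group, with points for libraries, a line for the group mean and open triangles at an arbitrary low position for libraries with 0 counts. Cldn4 lies at 2.65 to 9.93 CPM in all 6 Py2T-LT libraries and at 0.125 CPM or less in all 4 MTΔECad libraries, while Pkp2 is lowest in the Py2T-LT MEK inhibitor and control libraries.

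Levels per kilobase of exon put the scaffold and the adhesion molecule far above the strand proteins. In Py2T-LT controls, Tjp1 averaged 66.5 CPM per kb and F11r 38.3 CPM per kb. Pkp2 followed with 8.39, Cldn4 with 5.40, Cldn3 with 3.82 and Dsp with 1.94 CPM per kb. Epcam averaged 0.339 CPM per kb, Ocln 0.0221 CPM per kb, and Cldn7 had no count. In MTΔECad controls, Tjp1 at 38.7, F11r at 31.2 and Pkp2 at 13.2 CPM per kb were again the 3 highest, and the other 6 members were at 0.304 CPM per kb or less. The members thus spanned a broad range within each line, and the 3 highest were the cytoplasmic scaffold, the adhesion molecule and the plakophilin.

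Among the strand proteins, Cldn7 and Ocln were at or near the floor everywhere. Cldn7, a claudin of most simple epithelia that also binds EpCAM, had 1 count in a single Py2T-LT BMP2 plus MEK inhibitor library, 1 count in a single MTΔECad control library and 0 in the other 8. Its gene lies at chr11:69964779-69967886 and Ocln at chr13:100496504-100552718 in GRCm38. Ocln encodes occludin, the tetraspan protein of the strands. It had 3 and 2 counts with BMP2 plus MEK inhibitor, 2 and 2 with the MEK inhibitor and 1 and 2 in Py2T-LT controls. The MTΔECad libraries had 0 and 2 Ocln counts after rosiglitazone and 0 and 1 in controls. No difference in Ocln or Cldn7 was detectable at this depth: the Ocln ratio of BMP2 plus MEK inhibitor to Py2T-LT control was 1.67 with an exact 95% conditional interval of 0.325 to 10.8. Counting error is all that these intervals and floors take in.

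Cldn3 and Cldn4 encode barrier-forming claudins, and their genes lie 39.3 kb apart on chromosome 5, at chr5:134986214-134987476 and chr5:134945123-134946934. An antisense gene, Wbscr25, shares 40 exon bases with Cldn3 and had 1 count in all libraries together. Cldn3 stood at 1.205 and 1.51 CPM with BMP2 plus MEK inhibitor, 2.00 and 1.53 CPM with the MEK inhibitor, and 4.37 and 5.25 CPM in Py2T-LT controls. In MTΔECad cells Cldn3 had 13 and 1 counts after rosiglitazone and 2 and 10 counts in controls, so the libraries within each of these groups lay further apart than the groups. The Py2T-LT controls were highest, and no Py2T-LT library was as low as any MTΔECad library. Cldn4 stood at 5.89 and 9.01 CPM with BMP2 plus MEK inhibitor, 2.65 and 3.23 CPM with the MEK inhibitor, and 9.67 and 9.93 CPM in Py2T-LT controls. It had 0 and 0 counts in MTΔECad rosiglitazone libraries and 0 and 2 counts in MTΔECad controls. The 3 Py2T-LT groups did not overlap in Cldn4, with the MEK inhibitor libraries lowest. The edgeR test given below did not call its difference between BMP2 plus MEK inhibitor and Py2T-LT controls (adjusted p = 0.16).

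F11r encodes the junctional adhesion molecule JAM-A and Tjp1 encodes ZO-1, the scaffold under the strands. They lie at chr1:171437561-171464593 and chr7:65296165-65527850. F11r stood at 111.6 and 121 CPM with BMP2 plus MEK inhibitor, 78.7 and 79.45 CPM with the MEK inhibitor, and 107 and 96.6 CPM in Py2T-LT controls. Its MTΔECad levels were 90.9 and 79.3 CPM after rosiglitazone and 81.6 and 84.7 CPM in controls, which overlap. Tjp1 stood at 358 and 336 CPM with BMP2 plus MEK inhibitor, 356.5 and 379.8 CPM with the MEK inhibitor, and 500.2 and 539 CPM in Py2T-LT controls. In MTΔECad cells Tjp1 was at 371.5 and 369 CPM after rosiglitazone and 307 and 297 CPM in controls. Py2T-LT controls were thus highest and MTΔECad controls lowest for Tjp1, and neither overlapped the other 3 groups, which lay between them. By mean these ran from MTΔECad rosiglitazone through the MEK inhibitor to BMP2 plus MEK inhibitor. Neighbours in that order overlapped, but its first and last groups did not.

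Epcam encodes a cell adhesion protein of epithelia that binds and stabilises claudins, and its gene lies at chr17:87635979-87651127. It had 5 and 12 counts with BMP2 plus MEK inhibitor, 9 and 17 with the MEK inhibitor and 13 and 11 in Py2T-LT controls. The counts were 8 and 5 in MTΔECad rosiglitazone libraries and 1 and 0 in MTΔECad controls. The 3 Py2T-LT groups overlapped, and the MTΔECad controls lay below every other library.

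Of the desmosome members, Dsp encodes desmoplakin, the link to keratin filaments, and Pkp2 a plakophilin that binds desmoplakin and desmosomal cadherins. They lie at chr13:38151294-38198577 and chr16:16213345-16272712. The gene model Gm10129, on the other strand, shares 499 exon bases with Dsp, and since no source used here gives the strand setting, their reads cannot be told apart. Dsp stood at 24.7 and 23.8 CPM with BMP2 plus MEK inhibitor, 10.6 and 10.6 CPM with the MEK inhibitor, and 17.4 and 20.1 CPM in Py2T-LT controls. Its MTΔECad counts were 22 and 19 after rosiglitazone and 32 and 17 in controls, or 1.06 to 2.23 CPM over the 4 libraries. The 3 Py2T-LT groups thus did not overlap in Dsp, and all lay above both MTΔECad groups. The Dsp difference between BMP2 plus MEK inhibitor and Py2T-LT controls was not called in every run given below. The share of all genes without such overlap was not computed. Pkp2 stood at 92.0 and 89.2 CPM with BMP2 plus MEK inhibitor, 45.5 and 47.5 CPM with the MEK inhibitor, and 43.7 and 46.3 CPM in Py2T-LT controls. Its MTΔECad levels were 86.35 and 78.3 CPM after rosiglitazone and 70.8 and 70.4 CPM in controls. Pkp2 had its lowest mean in Py2T-LT controls, where Tjp1, Cldn3 and Cldn4 had their highest, although its MEK inhibitor and control libraries overlapped.

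In each comparison below, fold changes come from edgeR's quasi-likelihood test over 13149 genes, given as log2 ± standard error, and a gene was called at a Benjamini-Hochberg adjusted p under 0.05. The 2 comparisons with Py2T-LT controls share those 2 libraries, the comparison between the treatments shares the treated libraries with them, and the comparison of the lines shares both control groups, so the 5 are not independent.

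**Figure D2:**
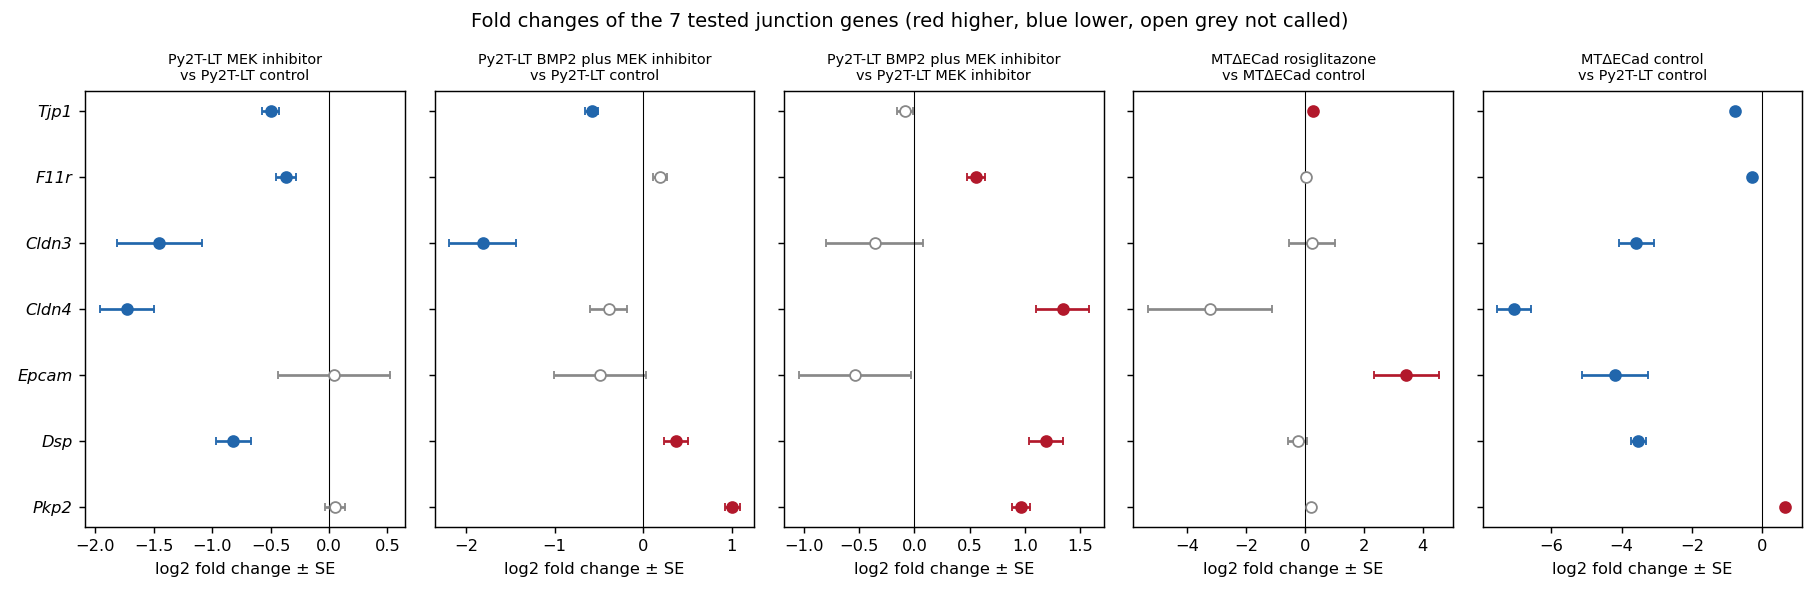
Fitted log2 fold change ± SE of the 7 tested genes (rows) in each of the 5 comparisons (panels, each with its own range), red where called higher, blue where called lower and open grey where not called. The Cldn4 point for rosiglitazone rests on 0 against 2 counts and is not interpretable as a fold. Relative to Py2T-LT controls, 5 genes are called lower with the MEK inhibitor, where 16.5% of all tested genes were called. With BMP2 plus MEK inhibitor, 4 are called higher than with the MEK inhibitor alone, where 37.3% of all tested genes were called. Relative to Py2T-LT controls it has 2 higher and 2 lower, where 38.5% were called.

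With the MEK inhibitor, the claudin genes Cldn3 and Cldn4, the adhesion gene F11r, the scaffold gene Tjp1 and the desmoplakin gene Dsp fell, and Pkp2 and Epcam did not pass the test. Relative to Py2T-LT controls, 5 of the 7 tested members were called lower and 0 higher, where 16.5% of all tested genes were called, 8.98% higher and 7.52% lower. Cldn4 fell by 1.73 ± 0.23 on the log2 scale (3.31-fold lower, adjusted p = 2.1e-05). Cldn3 fell by 1.45 ± 0.36 (2.73-fold lower, adjusted p = 0.0081), a call that DESeq2 did not make (adjusted p = 0.057) and that was lost without MEK inhibitor replicate 2 (adjusted p = 0.11). Desmoplakin fell by 0.82 ± 0.15 (adjusted p = 0.00057), and both its libraries, at 10.6 CPM, lay below the 17.4 and 20.1 CPM of the controls. Tjp1 fell by 0.50 ± 0.07 (adjusted p = 3.8e-05) and F11r fell by 0.37 ± 0.09 (adjusted p = 0.0041). F11r stood at -0.29 (adjusted p = 0.053) when Py2T-LT control replicate 1 was left out. Pkp2 differed by 0.05 ± 0.09 (adjusted p = 0.79) and Epcam by 0.05 ± 0.48 (adjusted p = 0.97), whose wide error leaves its direction undetermined. The median of the 7 members was -0.50, against 0.011 for all tested genes.

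Other tight junction genes were mixed under the MEK inhibitor, where 16.5% of all tested genes were called. Of 33 listed, 31 have a row and 19 were tested, with 1 called higher and 5 lower and a median log2 fold change of -0.22 over the 18 with any count in these groups. The 1 called higher was another claudin gene: Cldn1 had 13.1 and 18.1 CPM with the MEK inhibitor, against 8.25 and 7.18 CPM in controls, a log2 difference of 1.02 ± 0.17 (adjusted p = 0.00013). Cgn and Cgnl1 encode cingulin and paracingulin of the cytoplasmic plaque, and Amot a junctional scaffold protein. Cgn fell by 0.77 ± 0.21, a call lost in DESeq2 (adjusted p = 0.16) and without MEK inhibitor replicate 1 (0.065), replicate 2 (0.088) or Py2T-LT control replicate 2 (0.058), and Cgnl1 fell by 0.36 ± 0.07. Amot fell by 0.37 ± 0.10, a call lost without MEK inhibitor replicate 1 (adjusted p = 0.064) or Py2T-LT control replicate 2 (adjusted p = 0.17).

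The other desmosome genes split in direction, where 16.5% of all tested genes were called. Of 15 listed, 10 have a row and 8 were tested, with 3 called higher and 4 lower. Pkp1, the plakophilin of stratified epithelia, had 42.2 and 42.2 CPM with the MEK inhibitor, against 14.97 and 13.7 CPM in controls, a rise of 1.56 ± 0.12 (adjusted p = 5e-09). Perp, a tetraspan desmosome protein that is a p53 target, rose by 0.67 ± 0.07 (adjusted p = 8e-07). Dsc2, the desmocollin gene, fell by 1.16 ± 0.20, with 35 and 51 counts against 102 and 82 (adjusted p = 0.00026). Evpl, which encodes envoplakin, was called higher by 1.5 ± 0.44 (adjusted p = 0.029), and the call was lost in DESeq2 (adjusted p = 0.12), with only these 2 groups in the fit (0.26), and without MEK inhibitor replicate 2 (0.26) or Py2T-LT control replicate 2 (0.25). The desmogleins carried almost no counts: Dsg3 had 0 in every library and Dsg2 had 1 and 1 counts with BMP2 plus MEK inhibitor, 2 and 0 with the MEK inhibitor and 1 and 6 in Py2T-LT controls. Dsg2 and Dsg3 lie outside the rule for named genes and were chosen after their values were seen. Cldn5, Cldn8, Dsg1a, Dsg1b, Dsg4, Dsc1 and Dsc3 had no row matched in the deposited counts, so they could not be analysed here.

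Of the 16 tested apical polarity genes, 0 were called higher and 2 lower by edgeR under the MEK inhibitor, against 16.5% of all tested genes. Arhgef18, a guanine nucleotide exchange factor gene, fell by 0.28 ± 0.09 (adjusted p = 0.046), and Dlg1, a Scribble-complex scaffold, fell by 0.23 ± 0.07 (adjusted p = 0.03). The Arhgef18 call was lost in DESeq2 (adjusted p = 0.08) and without any 1 of the 4 libraries (0.063 to 0.3). The Dlg1 call was lost without MEK inhibitor replicate 1 (0.14) or replicate 2 (0.12) or Py2T-LT control replicate 2 (0.22), and with only these 2 groups in the fit (0.051). Among 10 tested epithelial partner genes 2 were called higher and 1 lower. The lower one was the E-cadherin gene Cdh1, with 196 and 200 counts with the MEK inhibitor, against 584 and 507 in controls, a fall of 1.52 ± 0.15 (adjusted p = 1.9e-07). Krt14, a basal keratin gene, rose by 0.76 ± 0.13 and Krt7, a simple-epithelial keratin gene, rose by 0.27 ± 0.09. The Krt7 call was lost in DESeq2 (adjusted p = 0.054), with only these 2 groups in the fit (0.074) and without MEK inhibitor replicate 1 (0.46), Py2T-LT control replicate 1 (0.092) or Py2T-LT control replicate 2 (0.18). All 7 adipocyte markers were called higher with the MEK inhibitor than in controls, with a median log2 fold change of 5.71. Their part in the junction results was not tested.

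When BMP2 accompanied the MEK inhibitor, the members split: Dsp and Pkp2 were called higher than in Py2T-LT controls, and Cldn3 and Tjp1 lower. These are 2 higher and 2 lower of 7, where 38.5% of all tested genes were called, 19.1% higher and 19.4% lower. Pkp2 rose by 1.01 ± 0.08 (2.01-fold, adjusted p = 3.1e-09). Dsp rose by 0.37 ± 0.14 (adjusted p = 0.045), which did not hold in DESeq2 (0.15) or without BMP2 plus MEK inhibitor replicate 1 (0.18), replicate 2 (0.1) or Py2T-LT control replicate 1 (0.25). Cldn3 fell by 1.81 ± 0.38 (3.5-fold lower, adjusted p = 0.00084) and Tjp1 fell by 0.58 ± 0.07 (1.5-fold lower, adjusted p = 1.2e-06). Cldn4 differed by -0.39 ± 0.21 (adjusted p = 0.16), and without BMP2 plus MEK inhibitor replicate 2, the library at 9.01 CPM, by -0.73 (adjusted p = 0.034). F11r differed by 0.19 ± 0.08 (adjusted p = 0.081), or by 0.27 (adjusted p = 0.045) when Py2T-LT control replicate 1 was left out. Epcam differed by -0.49 ± 0.52 (adjusted p = 0.49). The median of the members was -0.39, against 0.0017 for all tested genes.

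Set against the MEK inhibitor alone, BMP2 plus MEK inhibitor gave higher levels of 4 members and lower levels of 0, where 37.3% of tested genes were called, 17.9% higher and 19.4% lower. Cldn4 was higher by 1.34 ± 0.24 (2.53-fold, adjusted p = 0.00015), Dsp by 1.19 ± 0.15 (2.29-fold, adjusted p = 1.6e-06), Pkp2 by 0.96 ± 0.08 (1.95-fold, adjusted p = 6.5e-09) and F11r by 0.56 ± 0.09 (1.47-fold, adjusted p = 2e-05). These 4 held in every alternative run. Cldn3, the neighbour of Cldn4, differed by -0.36 ± 0.44 (adjusted p = 0.57), Tjp1 by -0.09 ± 0.07 (adjusted p = 0.39) and Epcam by -0.54 ± 0.51 (adjusted p = 0.45). Whether the response of Cldn3 differed from that of Cldn4 was not tested. The median of the members was 0.56, against 0.0051 for all tested genes.

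The wider junction lists moved in both directions with the combination. Beside these lists and those that follow, 38.5% of all tested genes were called relative to Py2T-LT controls and 37.3% against the MEK inhibitor alone. Relative to Py2T-LT controls, 5 of the 19 tested tight junction genes were called higher and 5 lower. Magi3, a scaffold with PDZ domains, had 349 and 331 CPM with BMP2 plus MEK inhibitor, against 183 and 195 CPM in controls, a rise of 0.84 ± 0.08. Ildr2, a gene of the angulin family of tricellular junction proteins, rose by 1.29 ± 0.35 (adjusted p = 0.0063). The call did not hold in DESeq2 (adjusted p = 0.094). Nor did it hold without BMP2 plus MEK inhibitor replicate 1 (rise of 1.12) or Py2T-LT control replicate 1 (rise of 0.80). Cldn1 rose by 0.95 ± 0.17 and Cgn fell by 1.38 ± 0.23. Against the MEK inhibitor alone, 6 tight junction genes were called higher and 3 lower, led by Ildr2 at 1.88 ± 0.37, Magi3 at 1.03 ± 0.08 and the Crumbs-complex gene Patj at 0.88 ± 0.14.

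Of the 8 other desmosome genes, 2 were called higher and 3 lower than in Py2T-LT controls. Dsc2 fell by 1.68 ± 0.22 and Ppl, which encodes periplakin, fell by 1.64 ± 0.08, while Jup, the plakoglobin gene, fell by 0.55 ± 0.09. Perp rose by 0.62 ± 0.07. Against the MEK inhibitor alone, 1 was called higher and 2 lower: Pkp1 fell by 1.80 ± 0.12, to 11.9 and 12.3 CPM with the combination, against 42.2 and 42.2 CPM with the MEK inhibitor. Ppl fell by 1.09 ± 0.08 and Pkp4, the plakophilin gene related to p120 catenin, rose by 0.55 ± 0.08. The 2 plakophilin genes Pkp1 and Pkp2 therefore differed in opposite directions between the same 4 libraries.

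Polarity genes gave 3 higher and 5 lower of 16 relative to Py2T-LT controls. Pard6g rose by 0.80 ± 0.19 and Prkci by 0.34 ± 0.08, both parts of the PAR complex, while Dlg1 fell by 0.58 ± 0.07 and Ybx3, a ZO-1-binding transcription factor, fell by 0.49 ± 0.08. The Pard6g call was lost without Py2T-LT control replicate 1 (adjusted p = 0.053). Against the MEK inhibitor alone, 4 were higher and 4 lower, led by Arhgef18 at 0.55 ± 0.09, Pard6g at 0.53 ± 0.18, Ybx3 at -0.42 ± 0.08 and Mpp5, also called Pals1, at 0.36 ± 0.09. Pard6g was not called by DESeq2 (adjusted p = 0.071) or without BMP2 plus MEK inhibitor replicate 1 (0.08), replicate 2 (0.089) or MEK inhibitor replicate 1 (0.15). Mpp5 was not called without BMP2 plus MEK inhibitor replicate 1 (adjusted p = 0.051) or MEK inhibitor replicate 1 (adjusted p = 0.056).

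All 10 tested epithelial partners were called in this comparison, 5 higher and 5 lower than in Py2T-LT controls. Ovol1, a transcription factor that keeps epithelial identity, had 42 and 50 counts with BMP2 plus MEK inhibitor, against 0 and 0 in Py2T-LT controls, at least 15.4-fold higher when the controls are set at the floor of 3 counts per library. Esrp2, an epithelial splicing factor, had a count ratio of 16.7 (95% interval 5.4 to 83.8), and Krt14 rose by 3.26 ± 0.12. The luminal keratin genes Krt8 and Krt18, chosen after their values were seen, fell by 2.35 ± 0.09 and 1.31 ± 0.09, and Cdh1 fell by 1.02 ± 0.14. Against the MEK inhibitor alone, 6 epithelial partners were called higher and 3 lower. Ovol1 had a count ratio of 24.1 (95% interval 9.12 to 90.5), Krt14 rose by 2.51 ± 0.11 and Krt8 fell by 2.56 ± 0.09. The luminal marker list shares Krt8, Krt18 and Cdh1 with these partners. The summed luminal markers were at 211 to 224 CPM with the combination, 569 to 652 CPM with the MEK inhibitor and 619 to 669 CPM in controls. Summed adipocyte markers were at 1130 to 1310 CPM with the combination, 906 to 924 CPM with the MEK inhibitor and 564 to 577 CPM in controls, a sum made up mostly of Lpl. All 7 were called higher with the combination than in controls, with a median log2 fold change of 6.21. Their part in the junction results was not tested.

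**Figure D3:**
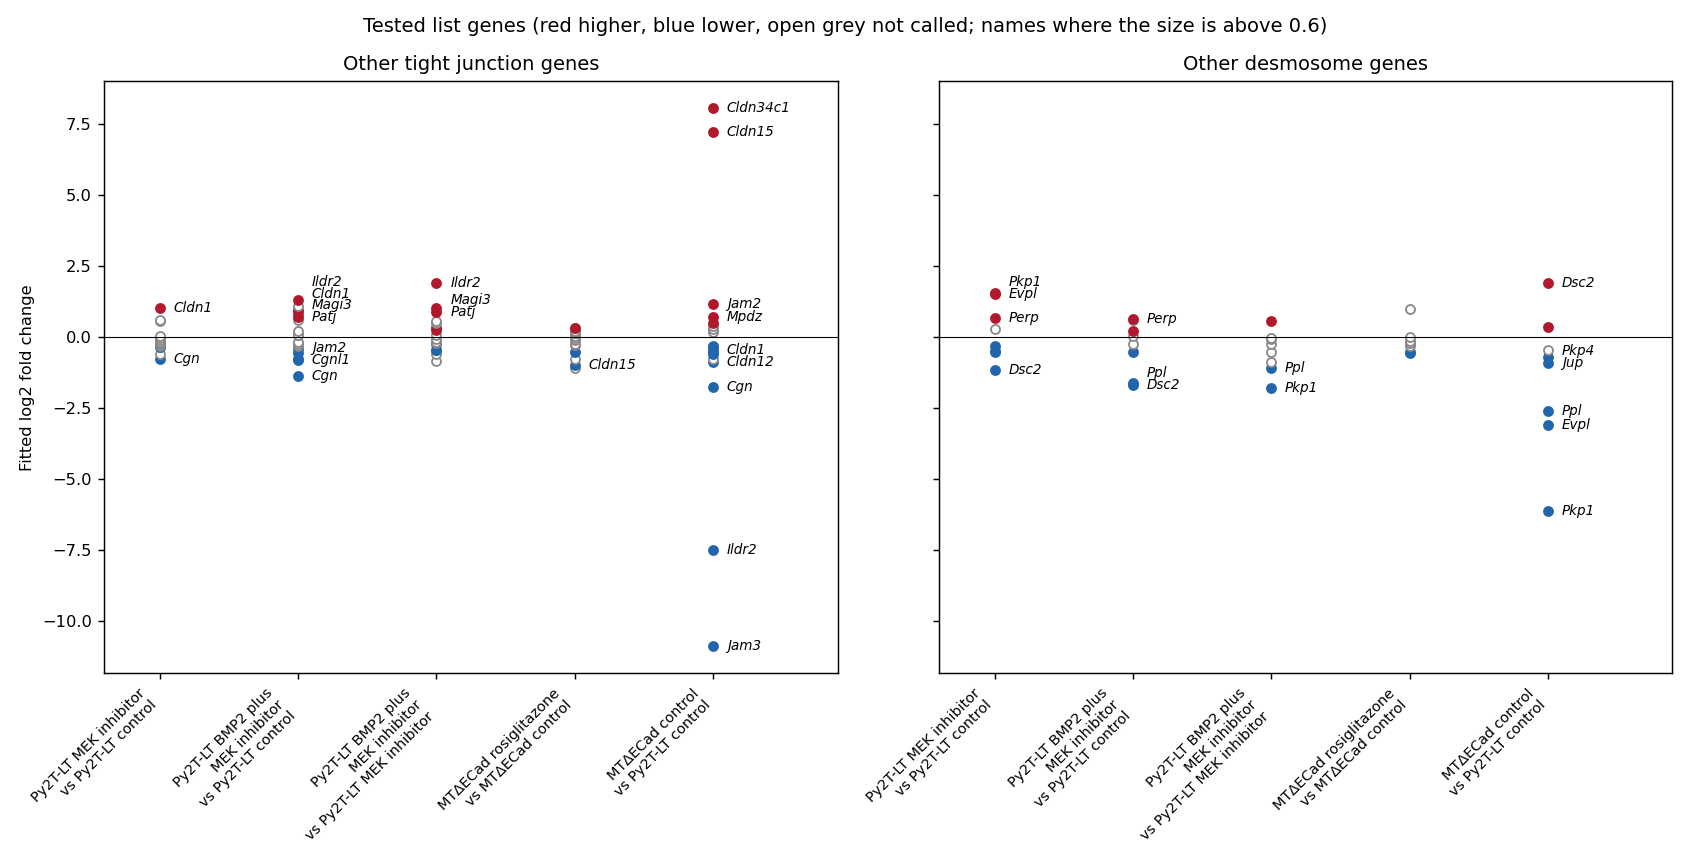
Fitted log2 fold change (vertical axis) of tested genes of 2 lists, other tight junction and other desmosome genes, in the 5 comparisons (horizontal axis), red where called higher, blue where called lower and open grey where not called. The points of Jam3, Ildr2 and Cldn34c1 in the comparison of the lines have a group at 0 counts, so their height depends on the fit's prior count; the called genes lie on both sides of 0 in each tight junction column.

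In MTΔECad cells, rosiglitazone was followed by higher Tjp1 and, on very few counts, higher Epcam. These are 2 of 7 members called higher and 0 lower, where 13.2% of tested genes were called, 7.95% higher and 5.26% lower. Tjp1 rose by 0.29 ± 0.07 (1.23-fold, adjusted p = 0.0077), and without MTΔECad control replicate 2 its adjusted p was 0.089. Epcam had 13 counts against 1 over the 2 libraries of each group, a ratio of 13.2 with an exact 95% interval of 1.99 to 563 (adjusted p = 0.038), and the call was lost in DESeq2 (0.17) and without any 1 of the 4 libraries (0.058 to 0.27). Pkp2 differed by 0.22 ± 0.08 (adjusted p = 0.085), and by 0.25 (adjusted p = 0.049) when only these 2 groups were fitted. F11r differed by 0.03 ± 0.09 (adjusted p = 0.89), Dsp by -0.23 ± 0.32 (adjusted p = 0.75) and Cldn3 by 0.25 ± 0.77 (adjusted p = 0.92). Cldn4, with 0 counts against 2, gave no fold. The median of the 6 members with counts in both groups was 0.23, against -0.02 for all tested genes.

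Among other junction genes, rosiglitazone went with 2 of 19 tight junction genes called higher and 2 lower. For desmosome genes it went with 0 of 8 higher and 2 lower, where 13.2% of all tested genes were called. Cldn15, a pore-forming claudin gene of intestine, had 17.8 and 16.4 CPM after rosiglitazone, against 34.9 and 32.8 CPM in controls, a fall of 0.98 ± 0.15 (adjusted p = 5.8e-05). Magi3 fell by 0.53 ± 0.08 and Cgnl1 rose by 0.33 ± 0.07. The Cgnl1 call was lost without rosiglitazone replicate 1 (adjusted p = 0.066). Ppl fell by 0.52 ± 0.09 and Dsc2 fell by 0.56 ± 0.14, and Dsc2 was not called in DESeq2 (adjusted p = 0.072) or without rosiglitazone replicate 1 (0.12) or control replicate 1 (0.079). Of 16 polarity genes, Arhgef18 rose by 0.30 ± 0.09 (adjusted p = 0.031) and Dlg1 fell by 0.26 ± 0.07 (adjusted p = 0.015). The Arhgef18 call was lost without rosiglitazone replicate 1 (0.34) or control replicate 2 (0.33), and the Dlg1 call without rosiglitazone replicate 1 (0.13), control replicate 1 (0.072) or control replicate 2 (0.11). Epithelial partners gave 3 higher and 1 lower of 10. Krt14 had 68.45 and 57.4 CPM after rosiglitazone, against 10.1 and 8.64 CPM in controls, a rise of 2.75 ± 0.12. Krt8 rose by 0.46 ± 0.08, Krt18 rose by 0.35 ± 0.09 and Krt7 fell by 0.48 ± 0.09, and the Krt18 call was lost without rosiglitazone replicate 1 (adjusted p = 0.18) or control replicate 1 (0.11). Of 7 adipocyte markers, 5 were called higher after rosiglitazone and 0 lower, with a median log2 fold change of 8.56. Their sum, of which Lpl was the largest part, was at 3660 to 3970 CPM after rosiglitazone and 1660 to 1790 CPM in controls, and luminal markers at 361 to 394 CPM after rosiglitazone and 274 to 286 CPM in controls. Their part in these results was not tested.

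Between the lines, 6 of 7 tested members were lower in MTΔECad controls than in Py2T-LT controls and Pkp2 was higher, where 61.0% of tested genes were called, 29.3% higher and 31.7% lower. Cldn4 was lowest relative to Py2T-LT, with 2 counts against 316, a ratio of 0.00672 with an exact 95% interval of 0.000811 to 0.0245 (adjusted p = 9.1e-11). Dsp fell by 3.53 ± 0.21 (11.5-fold lower, adjusted p = 5.3e-12) and Cldn3 fell by 3.58 ± 0.49 (12-fold lower, adjusted p = 4.9e-06). Epcam had 1 count against 24, a ratio of 0.0443 with an interval of 0.00108 to 0.271 (adjusted p = 0.00065). Tjp1 was lower by less, at -0.78 ± 0.07 (adjusted p = 7.5e-09), and so was F11r, at -0.29 ± 0.09 (adjusted p = 0.0054), or -0.21 (adjusted p = 0.074) once Py2T-LT control replicate 1 was left out. Pkp2 was 1.57-fold higher (0.65 ± 0.08, adjusted p = 1e-06). The median of the members was -3.53, against -0.03 for all tested genes. Lines differ in origin as well as in E-cadherin, and these cannot be told apart here.

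The lines also differed in which members of the other junction lists they carried. Of 19 tight junction genes, 5 were called higher and 9 lower in MTΔECad controls, where 61.0% of all tested genes were called. Jam3, a junctional adhesion molecule gene, had 0 counts in all 4 MTΔECad libraries and 213 to 281 counts in each Py2T-LT library, and was at least 76.2-fold lower in MTΔECad controls. Ildr2, with 0 counts against 46, was at least 7.22-fold lower, and Cldn34c1, with 64 counts against 0, was at least 11.3-fold higher. Cldn15 had 502 and 524 counts in MTΔECad controls, against 3 and 4 in Py2T-LT controls, a ratio of 156 with an interval of 75.3 to 388. Of 8 desmosome genes, 2 were called higher and 5 lower. Pkp1 had 6 counts against 463 (ratio 0.0138, interval 0.00503 to 0.0302), Ppl fell by 2.60 ± 0.09, and Dsc2 rose by 1.89 ± 0.15. Evpl had 4 counts against 38 (ratio 0.112, interval 0.029 to 0.311), with the call lost without Py2T-LT control replicate 1 (adjusted p = 0.22) or MTΔECad control replicate 1 (0.059).

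Polarity genes gave 3 higher and 7 lower of 16 between the lines. Beside this and the other lists compared between the lines, 61.0% of all tested genes were called, 29.3% higher and 31.7% lower. Marveld1, a MARVEL-domain protein gene, fell by 3.54 ± 0.13 and Pard6b by 3.34 ± 0.27, while its paralogue Pard6g rose by 1.75 ± 0.17. Ybx3 fell by 1.35 ± 0.08. Epithelial partners gave 3 higher and 2 lower of 10. Cdh1 fell by 3.81 ± 0.19 and Krt18 by 2.34 ± 0.09, while Krt7 rose by 3.00 ± 0.09. Esrp2 had 21 counts against 3 (ratio 7.44, interval 2.22 to 38.9), a call lost without Py2T-LT control replicate 1 (adjusted p = 0.057) or MTΔECad control replicate 2 (0.065). Of 6 repressor genes of the epithelial to mesenchymal transition, 3 were called higher and 1 lower, and Snai1, which encodes an E-box-binding repressor, had 250 and 250 counts in MTΔECad controls, against 15 and 15 in Py2T-LT controls (4.14 ± 0.21). Snai1 was also higher with the combination than in Py2T-LT controls, by 1.86 ± 0.27, at means of 3.39 against 0.930 CPM. Twist2 went the other way there, with a mean of 13.7 CPM with the combination and 36.5 CPM in Py2T-LT controls. Between the lines, Snai2 averaged 6.61 CPM in MTΔECad controls and 11.8 CPM in Py2T-LT controls, and Zeb2 averaged 174 and 168 CPM. In the same order, Zeb1 averaged 187 and 136 CPM, Twist1 47.8 and 19.7 CPM, and Twist2 42.95 and 36.5 CPM. Of all tested genes, 16.5% were called with the MEK inhibitor, 38.5% with the combination, 37.3% between these treatments and 13.2% after rosiglitazone. Of the same 6 genes, 1 was called higher and 1 lower with the MEK inhibitor, and 1 higher and 2 lower with the combination. Between these treatments 3 were called higher and 2 lower, and after rosiglitazone 0 higher and 1 lower. The 1 lower was Snai1, a call lost in DESeq2 (adjusted p = 0.19) and without any 1 of the 4 libraries (0.053 to 0.2). The 1 higher with the MEK inhibitor was also Snai1, a call lost in DESeq2 (0.053), with only these 2 groups in the fit (0.067), and without MEK inhibitor replicate 1 (0.16), Py2T-LT control replicate 1 (0.081) or Py2T-LT control replicate 2 (0.099). Its call between the treatments was lost without MEK inhibitor replicate 2 (0.099). Snai1, Snai2, Zeb1, Zeb2, Twist1 and Twist2 were chosen after their values were seen, and their part in the junction results was not tested. Summed luminal markers were at 274 to 286 CPM in MTΔECad controls and 619 to 669 CPM in Py2T-LT controls, and mesenchymal markers were at 16500 to 19300 CPM in MTΔECad controls and 8410 to 11200 CPM in Py2T-LT controls. Their part in these differences was not tested.

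Per kilobase of exon, the members held different places in their gene families. The claudin sum covers the 15 listed claudin genes with a row, and claudins outside the lists were left out. Cldn12, chosen after its values were seen, made up most of this sum in Py2T-LT cells. Its share was 73.7% with BMP2 plus MEK inhibitor, 75.4% with the MEK inhibitor and 64.9% in controls. Cldn4 made up 12.5%, 5.95% and 16.5% of the claudin sum in these groups, and Cldn3 made up 3.28%, 5.16% and 11.7%. In MTΔECad cells Cldn15 made up 37.6% after rosiglitazone and 54.4% in controls, with Cldn12 at 52.5% and 39.3%. F11r led the junctional adhesion molecules in each group, at 74.8% to 85.1% of the sum. Pkp2 was second to Pkp4 in each group, at 29.9% of the plakophilin sum with BMP2 plus MEK inhibitor, 19.8% with the MEK inhibitor, 19.2% in Py2T-LT controls, 45.9% in MTΔECad rosiglitazone libraries and 39.3% in MTΔECad controls. The desmosome-linked plakophilin of stratified epithelia, Pkp1, reached 19.2% with the MEK inhibitor.

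**Figure D4:**
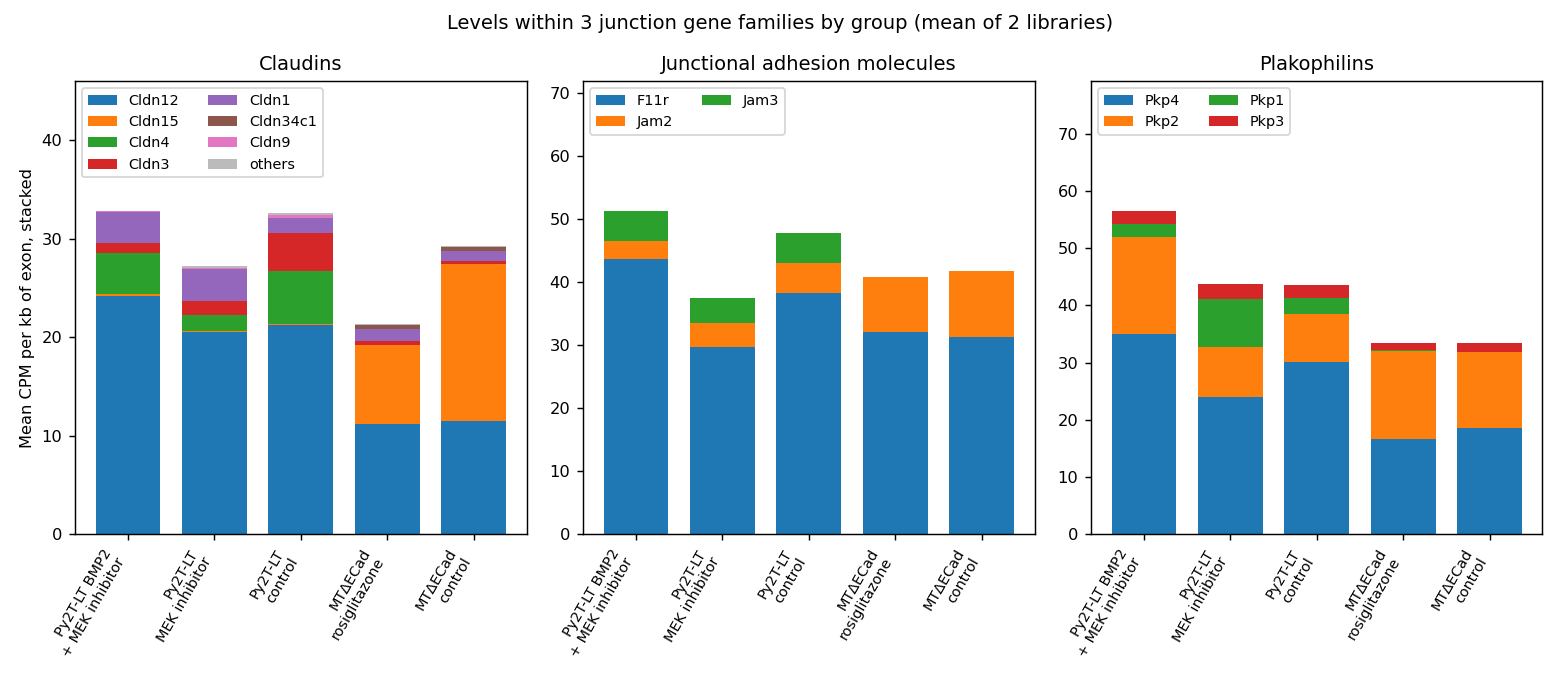
Mean CPM per kb of exon (vertical axis, stacked from 0) of the listed genes of 3 families in the 5 groups, as the mean of 2 libraries. Cldn12 fills most of the claudin bar in Py2T-LT groups, Cldn15 appears in MTΔECad groups and makes up 54.4% of the sum in MTΔECad controls, and F11r is the largest part of its bar in each group.

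The genes whose log2 CPM ran most alike over the 10 libraries were Lgr6 (Pearson's r = 0.994) for Cldn4, Arhgef17 (r = 0.993) and Thbs3 for Dsp, and Kif7 (r = 0.989) and Frmd6 for Pkp2. For Cldn3 they were Meis1 (r = 0.953) and Ccdc120, for Tjp1 Shpk (r = 0.968) and Ivns1abp, for F11r Nf2 (r = 0.945) and Wwc2, and for Epcam Nbeal2 (r = 0.957) and Dennd4b. The 10 libraries come from 2 lines, and the difference between the lines enters each of these values. Over the 6 Py2T-LT libraries, a choice made after seeing the data, other genes led: Plekha2 (r = 0.994) for Cldn4, Castor2 (r = 1.00) for Dsp and Lpin2 (r = 0.999) for Pkp2. The highest of 13149 values is high by selection, and no test applies.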

How the data were processed

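RNA of 10 libraries was sequenced. The authors deposited whole-number counts per gene, not normalized; reads were aligned with STAR to mm10, per the submitters' processing notes. Which tool counted the reads, its annotation and strand setting, and all versions, are not given in these sources. The labels' protocols name both poly-A RNA and a total RNA kit, and which applied is unclear.

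Genes were kept by edgeR's filterByExpr (13149 of 18103) and tested with edgeR 4.0.16 (R 4.3.3, limma 3.58.1), using TMM scaling, 5 group means and robust quasi-likelihood tests with 5 residual degrees of freedom and Benjamini-Hochberg adjustment over all tested genes. The procedure was tested on simulated data. CPM per kb used exon-union lengths. A total of 18057 genes (99.75%) matched RefSeq. Alternatives were DESeq2 1.42.0, RLE scaling, no filter, only the compared groups, a replicate block, and each library left out.

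The members and lists were chosen with earlier results of these data known. The text names all members, and from each list up to 4 called genes with the largest change per comparison. Some genes that this rule names are not reported here. The labels describe independent experiments, and p-values measure only the spread between 2 libraries per group. Replicates differed by more than sampling noise.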

Additional observations from a re-analysis of the deposited data

How the results depend on the processing

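Of 311 alternative values for the tested members, 288 kept their direction and side of the threshold, 14 lost a call, 3 gained one and 6 changed sign. The sign changes were all in differences that were not called. For Epcam with the MEK inhibitor the value ran from -0.352 (without MEK inhibitor replicate 2) to 0.319 with a library left out, and was -0.0608 without Py2T-LT control replicate 2. After rosiglitazone, Cldn3 ran from -2.39 (without rosiglitazone replicate 1) to 1.7 and was -0.411 without MTΔECad control replicate 1. F11r ran from -0.069 (without rosiglitazone replicate 1) to 0.13, and Dsp from -0.692 to 0.368 (without MTΔECad control replicate 1). The count of members called after rosiglitazone, 2 by edgeR, was 1 in DESeq2 and 0 to 1 with a library left out, while all genes called, 1737 by edgeR, numbered 1112 to 1338 with a library left out and 1112 without MTΔECad control replicate 1. The cause was not tested, beyond the smaller number of samples in the fits with a library left out. Without Py2T-LT control replicate 1, calls with the MEK inhibitor split into 1012 higher and 1158 lower, against 1181 and 989 with all libraries. RLE scaling moved no member's level beyond its spread. Depth limits Cldn7 and Ocln everywhere, and Cldn3, Cldn4 and Epcam in MTΔECad cells, where 1 count is 0.0626 to 0.0696 CPM.

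Same-numbered libraries showed no strong shared deviation, with correlations of deviations of -0.106 to 0.1. These values cannot show whether such libraries came from the same experiment. With the replicate block members called numbered 5 and all genes called 2245 for the MEK inhibitor against Py2T-LT control, 4 and 5148 for BMP2 plus MEK inhibitor against that control, 4 and 5024 for it against the MEK inhibitor, 2 and 1833 for rosiglitazone, and 7 and 8091 for the lines. The block changed no call of a member; the Evpl call with the MEK inhibitor was lost (adjusted p = 0.054).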
